A study of Mus musculus with 10 samples.

Results

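The cluster of miR-322, miR-503, miR-351, miR-542 and the miR-450 group consists of 7 microRNA (miRNA) hairpins on the mouse X chromosome, Mir322, Mir503, Mir351, Mir542, Mir450a-1, Mir450a-2 and Mir450b. Its members are the mature arms of these hairpins, the 5p arm coming from the 5′ side and the 3p arm from the 3′ side of each hairpin. Reads were found for 12 arms of the cluster, out of 763 arms with reads from the 1174 annotated mouse miRNA hairpins searched. The 5p arms of the 2 copies of Mir450a (Mir450-1 and Mir450-2 in the GENCODE annotation) are identical and were counted as 1 arm, and the 3p arm of Mir450a-2 had no reads in any library. The cluster was chosen with its levels in these libraries known, so the levels and differences of its arms are a description. Calls of its arms by edgeR, a fit across all arms, are given beside the share of all arms called and are not used as evidence.

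The libraries were made from the small RNA of cells sorted from mouse embryoid bodies on Day 6 of differentiation, after male mESCs had passed through epiblast-like cells. Primordial germ cell-like cells (mPGCLCs) came from 2 mESC lines. By the study's methods, the line E14 (129/Ola) carries no reporter, and its mPGCLCs were sorted as Ssea1-positive and Cd61-positive. The line BG5 (C57BL/6J/DBA/129) carries a Blimp1-GFP reporter, and its mPGCLCs were sorted as Ssea1-positive and Blimp1-GFP-positive. The labels instead give 1 gate on Stella-GFP and Esg1-tdTomato for the mPGCLCs of every line, so the sources differ on whether the gate was the same in both lines. The non-PGCLC groups held the surrounding embryoid body cells of E14, of BG5 and of SGET (B6CBA/129), a line with Stella-GFP and Esg1-tdTomato reporters. Each of the 5 groups had 2 replicates, and each strain background was represented by 1 line. The labels call the replicates biological duplicates without saying that they came from separate cultures, so the spread given here is that between these libraries. The mPGCLCs of SGET were not analysed here.

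A miRNA hairpin is cut by Drosha and Dicer into a short duplex, from which 1 arm is usually loaded into an Argonaute protein. The loaded arm pairs with messenger RNAs mainly through its seed, bases 2 to 8, and lowers their translation and stability. The mouse cluster is made from X-linked primary transcripts and is known for its activity in mesoderm and muscle, where miR-322 and miR-503, relatives of miR-15 and miR-16, restrain the cell cycle.

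In the genome build GRCm38 the 7 hairpins lay on the minus strand of chromosome X between positions 53047997 and 53054349, a span of 6353 nt. In the direction of transcription Mir322 (53054255 to 53054349), Mir503 (53053984 to 53054054) and Mir351 (53053255 to 53053353) formed an upstream group of 3 hairpins. A gap of 3767 nt followed, and then Mir542 (53049403 to 53049487), Mir450a-2 (53048299 to 53048367), Mir450a-1 (53048154 to 53048244) and Mir450b (53047997 to 53048078) formed a downstream group of 4 hairpins. No other gene of the GENCODE annotation overlapped any of the hairpins. The RefSeq model of the long non-coding RNA C430049B03Rik (53053112 to 53057190) contained the upstream hairpins and none of the downstream ones.

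The RefSeq mature sequences of 8 arms are given here. The arms from miR-322-5p to miR-450a-5p are the more abundant arm of a hairpin or, for miR-322-5p, carry a seed shared with other miRNAs, and the last pair shows how alike the 3p arms of Mir450a-1 and Mir450b are. Each is written 5′ to 3′ with the seed in capitals.
miR-322-5p: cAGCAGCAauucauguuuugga
miR-322-3p: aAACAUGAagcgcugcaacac
miR-503-5p: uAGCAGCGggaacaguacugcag
miR-351-5p: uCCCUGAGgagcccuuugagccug
miR-542-3p: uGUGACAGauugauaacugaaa
miR-450a-5p: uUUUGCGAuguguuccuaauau
miR-450a-1-3p: aUUGGGAAcauuuugcauaaau
miR-450b-3p: aUUGGGAAcauuuugcaugcau

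The seed of miR-322-5p was that of miR-15a, miR-15b, miR-16, miR-195a and miR-497a, among others. The seed of miR-503-5p differed from it in its last base and was found in no other mature miRNA of the RefSeq table. miR-351-5p shared its seed with miR-125a and miR-125b, among others. The 3p arms of Mir450a-1 and Mir450b shared their seed and their first 18 nt and were told apart by later bases, so their split rests on the 3′ part of the reads. In all, 4 reads of the cluster matched another arm equally well.

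The libraries held 7421061 to 14444567 reads each, and 14.97% to 34.5% of these matched miRNA hairpins. Levels are given as reads per 1000000 reads of a library (RPM), and a count of 0 allowed a level of up to 0.208 to 0.404 RPM (3 reads, counting error only). Summed over the 12 arms, the cluster was at 220 and 237 RPM in the E14 mPGCLCs and at 538 and 333 RPM in the BG5 mPGCLCs. It was at 695 and 863 RPM in the E14 non-PGCLC cells and at 474 and 494 RPM in the SGET non-PGCLC cells. The BG5 non-PGCLC cells stood far above the other 8 libraries, at 6880 and 4699 RPM.

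Within each line the mPGCLC libraries lay below the non-PGCLC libraries without overlap. The group means of the sum were 228 ± 11.6 RPM (SD, n = 2) against 779 ± 119 RPM in E14, 3.41-fold lower in mPGCLCs, and 436 ± 145 RPM against 5789 ± 1542 RPM in BG5, 13.3-fold lower. Across lines the order was less simple, because the SGET non-PGCLC libraries lay between the replicates of the BG5 mPGCLCs. As a share of all miRNA reads the cluster made up 0.0694% in the E14 mPGCLCs and 0.235% in the BG5 mPGCLCs. This compared with 0.392%, 2.15% and 0.155% in the E14, BG5 and SGET non-PGCLC cells, so on this scale the SGET non-PGCLC cells were below the BG5 mPGCLCs.

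The scale matters for BG5. The median log2 difference between mPGCLC and non-PGCLC cells over all 561 arms tested was -0.73 in BG5 when libraries were scaled by total reads, and -0.04 after scaling by trimmed mean of M-values (TMM). Fitted changes below are on the TMM scale, and the RPM values are not. Because the RNA came from sorted populations in bulk, fewer cells of a type and less RNA per cell cannot be told apart.

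**Figure D1:**
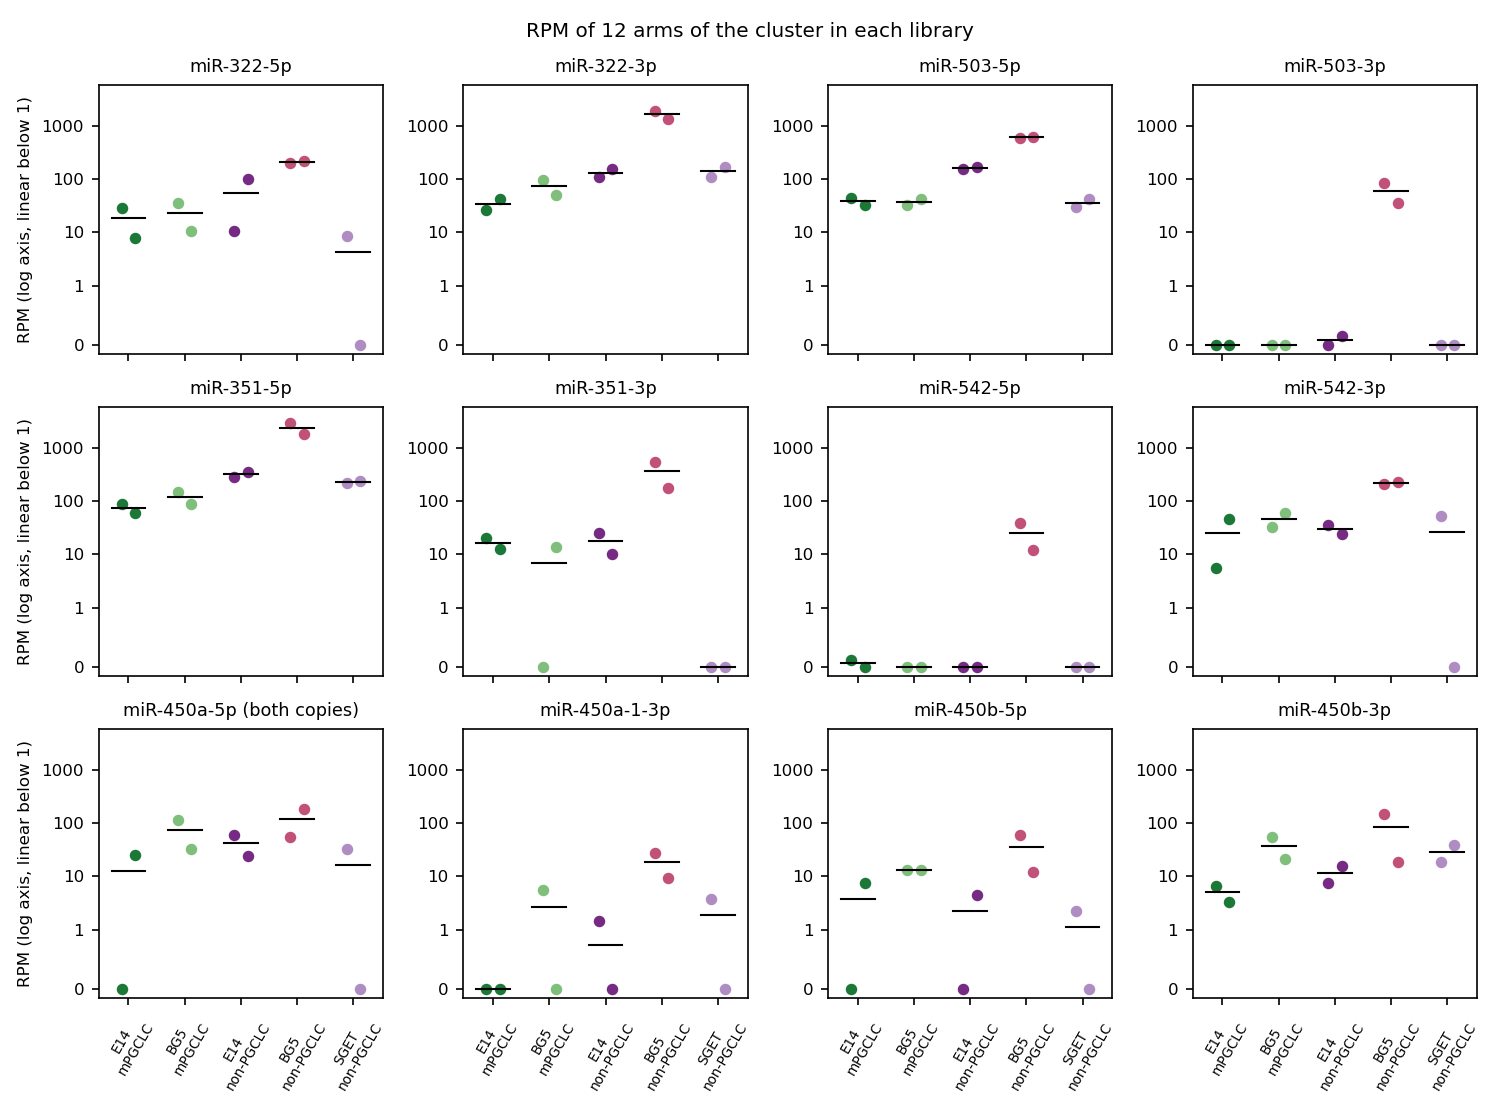
RPM of each of the 12 arms (vertical log axis, linear below 1) in the 5 groups (horizontal axis). Points are single libraries and bars are group means of 2 replicates. The BG5 non-PGCLC libraries were the 2 highest of the 10 for 9 of the 12 arms, as they were for 26.4% of all arms tested, and several arms had reads in 1 replicate of a group and none in the other.

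miR-351-5p was the most abundant arm of the cluster, with 69736 reads over the 10 libraries. It measured 88.8 and 60.5 RPM in the E14 mPGCLCs, 148 and 88.8 RPM in the BG5 mPGCLCs, 288 and 360 RPM in the E14 non-PGCLC cells, 2944 and 1820 RPM in the BG5 non-PGCLC cells and 215 and 242 RPM in the SGET non-PGCLC cells. All 4 mPGCLC libraries were below all 6 non-PGCLC libraries. The only neighbouring groups whose replicates overlapped were the mPGCLCs of the 2 lines.

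miR-322-3p, the partner strand of the arm that carries the miR-15/16 seed, was second with 45919 reads. Its levels were 26.1 and 41.9 RPM in the E14 mPGCLCs, 98.0 and 51.1 RPM in the BG5 mPGCLCs, 109 and 154 RPM in the E14 non-PGCLC cells, 1946 and 1356 RPM in the BG5 non-PGCLC cells and 109 and 171 RPM in the SGET non-PGCLC cells. The mPGCLC libraries were again the lowest 4. The E14 and SGET non-PGCLC cells overlapped.

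miR-503-5p had a different order. It was at 43.9 and 32.7 RPM in the E14 mPGCLCs, 32.4 and 42.3 RPM in the BG5 mPGCLCs, 157 and 170 RPM in the E14 non-PGCLC cells, 603 and 624 RPM in the BG5 non-PGCLC cells and 29.6 and 42.4 RPM in the SGET non-PGCLC cells. The SGET non-PGCLC cells therefore overlapped the mPGCLCs of both lines, and only the E14 and BG5 non-PGCLC cells stood above them.

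miR-322-5p, the arm with the seed of miR-15 and miR-16, was lower than its 3p partner in group mean in every group. It was at 28.9 and 7.83 RPM in the E14 mPGCLCs, 35.8 and 10.7 RPM in the BG5 mPGCLCs, 10.7 and 99.1 RPM in the E14 non-PGCLC cells, 205 and 221 RPM in the BG5 non-PGCLC cells and 8.61 and 0 RPM in the SGET non-PGCLC cells. Only the BG5 non-PGCLC cells were separate from the next group, and the other groups overlapped in sequence.

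The less abundant arms of the upstream hairpins were mostly reads of the BG5 non-PGCLC cells. miR-351-3p was at 553 and 174 RPM there and at 25.3 RPM or less in every other library, with none in SGET. miR-503-3p was at 83.4 and 36.4 RPM in the BG5 non-PGCLC cells, and elsewhere only 2 reads were found, in 1 E14 non-PGCLC library. Taken at the 3-read limit, which covers counting error only, it was 182-fold lower in the BG5 mPGCLCs.

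Of the downstream hairpins, miR-542-3p was at 211 and 231 RPM in the BG5 non-PGCLC cells and between 0 and 59.9 RPM in the other 8 libraries. Its levels were 5.56 and 45.4 RPM in the E14 mPGCLCs, 32.7 and 59.9 RPM in the BG5 mPGCLCs, 35.4 and 24.3 RPM in the E14 non-PGCLC cells and 53.6 and 0 RPM in the SGET non-PGCLC cells. These 4 groups overlapped. miR-542-5p was found at 39.4 and 12.05 RPM in the BG5 non-PGCLC cells, and elsewhere only 1 read was found, in 1 E14 mPGCLC library.

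The identical miR-450a-5p arms of both Mir450a copies did not follow the order of miR-351-5p. They were at 0 and 24.98 RPM in the E14 mPGCLCs, 117 and 32.3 RPM in the BG5 mPGCLCs, 59.8 and 23.9 RPM in the E14 non-PGCLC cells, 55.4 and 183 RPM in the BG5 non-PGCLC cells and 33.0 and 0 RPM in the SGET non-PGCLC cells. Each group overlapped the group nearest to it in mean level.

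miR-450b-3p was at 6.65 and 3.36 RPM in the E14 mPGCLCs, 55.3 and 20.9 RPM in the BG5 mPGCLCs, 7.41 and 16.05 RPM in the E14 non-PGCLC cells, 151 and 19.0 RPM in the BG5 non-PGCLC cells and 18.9 and 38.9 RPM in the SGET non-PGCLC cells. The E14 mPGCLCs were the lowest group, and the BG5 mPGCLCs overlapped both the BG5 and the SGET non-PGCLC cells. miR-450a-1-3p stayed between 0 and 28.0 RPM and miR-450b-5p between 0 and 59.9 RPM, each highest in 1 BG5 non-PGCLC library.

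The summed upstream hairpins (Mir322, Mir503 and Mir351) were at 182 ± 37.1 RPM in the E14 mPGCLCs and 692 ± 144 RPM in the E14 non-PGCLC cells (SD, n = 2), 3.81-fold lower in mPGCLCs. In BG5 they were at 261 ± 75.9 against 5284 ± 1486 RPM, 20.3-fold lower. The downstream hairpins (Mir542 and the Mir450 group) were at 46.8 ± 48.8 against 86.5 ± 25.03 RPM in E14, where the replicates overlapped. In BG5 they were at 175 ± 68.9 against 505 ± 55.7 RPM, 2.89-fold lower, without overlap. In the BG5 mPGCLCs the upstream hairpins made up 58.4% and 62.1% of the reads of the cluster, and in the BG5 non-PGCLC cells 92.1% and 90.1%. In E14 this share was 94.4% and 65.7% in mPGCLCs and 85.0% and 92.0% in non-PGCLC cells, so the replicates of the mPGCLCs were further apart than the groups. The SGET non-PGCLC cells gave 76.5% and 92.1%.

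**Figure D2:**
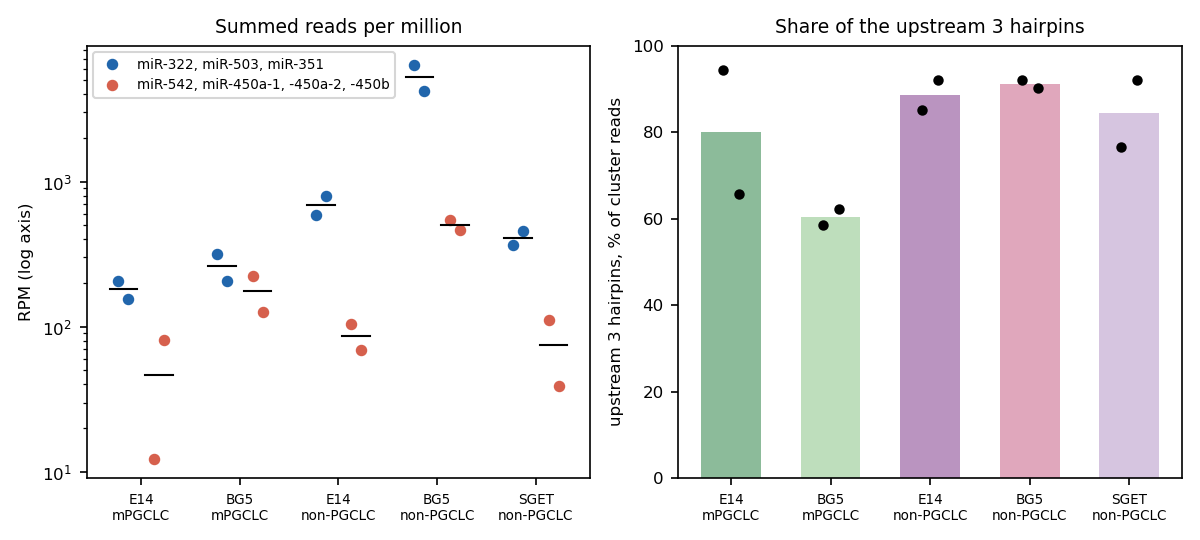
Left, summed RPM (log axis) of the upstream hairpins (Mir322, Mir503, Mir351) and the downstream hairpins (Mir542, Mir450a-1, Mir450a-2, Mir450b) in the 5 groups, with points for the 2 replicates and bars for their mean. Right, the upstream share of the reads of the cluster in percent, with bars for the group mean and points for replicates. The BG5 mPGCLCs had the lowest mean share, 60.3%, and the 2 E14 mPGCLC libraries were at 94.4% and 65.7%.

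A fit of edgeR's quasi-likelihood model across 561 arms gave each arm a log2 change with its standard error. Taken as the mean over both lines, miR-322-3p had a log2 change of -2.98 (SE 0.37) in mPGCLCs against non-PGCLC cells. The value was -2.97 (SE 0.30) for miR-351-5p and -2.80 (SE 0.51) for miR-503-5p. These 3 of the 12 arms were called lower at an adjusted p under 0.05 and no arm was called higher, where 7.13% of all arms tested were called lower (edgeR, Benjamini-Hochberg adjustment). The cluster was chosen on this contrast, so nothing is read from that count. The 3 arms were also those for which all 4 mPGCLC libraries of E14 and BG5 lay under all 4 non-PGCLC libraries of these lines, which held for 3.92% of all arms tested. Within a line, the replicates of 4 of the 12 arms lay lower in mPGCLCs without overlap in E14 and of 9 of the 12 in BG5, where 14.4% and 35.3% of all arms tested did.

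None of the 6 arms of the downstream hairpins was called in that fit. Without the 3 arms that had no reads in at least 1 of the 4 groups of E14 and BG5 (miR-503-3p, miR-542-5p and miR-450a-1-3p), the median log2 change was -2.80 over 5 upstream arms and -0.93 over 4 downstream arms, beside a median of 0.14 over all arms.

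In E14 alone the log2 changes were -2.16 (SE 0.50) for miR-322-3p, -2.31 (SE 0.42) for miR-351-5p and -2.28 (SE 0.70) for miR-503-5p. The first 2 of these were called lower, where 2.32% of all arms were. The call of miR-322-3p was lost without E14 mPGCLC replicate 1, without E14 mPGCLC replicate 2 and without E14 non-PGCLC replicate 2, and that of miR-351-5p without E14 mPGCLC replicate 2. The first was also lost with total-read scaling and with only the samples compared, and the second with exact hairpin matches. In BG5 alone they were -3.81 (SE 0.54), -3.63 (SE 0.44) and -3.31 (SE 0.73), all 3 called lower, where 5.7% of all arms were. The call of miR-503-5p was lost without BG5 mPGCLC replicate 1 and without BG5 non-PGCLC replicate 2. The median over the 9 arms with reads in all 4 groups was -1.81 in E14 and -2.66 in BG5, beside 0.00 and -0.04 over all arms. With arms at 0 taken at the 3-read limit, the median log2 ratio of RPM was -1.41 over 10 arms in E14 and -3.62 over 12 arms in BG5.

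The difference between the lines was not called for any of the 12 arms by edgeR, where 5.7% of all arms tested were called in either direction. At an unadjusted p under 0.05 it held for 2 of the 12 arms and for 14.6% of all arms tested, and DESeq2 called none of the 12. Without E14 mPGCLC replicate 2 or without BG5 mPGCLC replicate 2, edgeR called 1 arm. The log2 difference, BG5 minus E14, was -1.64 (SE 0.69) for miR-322-3p and -1.32 (SE 0.56) for miR-351-5p.

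**Figure D3:**
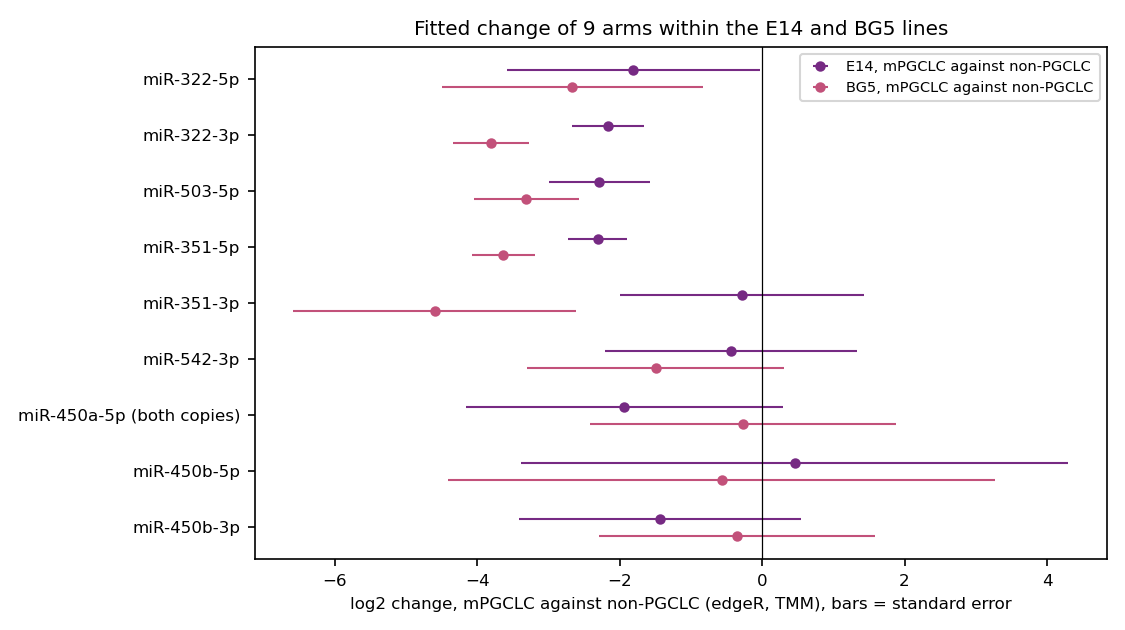
Fitted log2 change of mPGCLC against non-PGCLC cells (horizontal axis) within E14 and within BG5 for the 9 arms that had reads in all 4 groups of these lines, with bars for 1 standard error. miR-322-3p, miR-503-5p and miR-351-5p lay between -2.16 and -3.81 in both lines with short bars, and the bars of most other arms were wider.

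The next contrasts set the lines against each other, and these too were known when the cluster was chosen. Against E14 non-PGCLC cells, the BG5 non-PGCLC cells held 7.43-fold more of the cluster in RPM. On this scale the median arm of all tested also rose, by 1.19 on the log2 scale, against 0.16 after TMM. With miR-322-3p at 2.59 (SE 0.51) and miR-351-5p at 1.80 (SE 0.41) after TMM, 2 of 12 arms were called higher, where 7.84% of all arms were. The call of miR-351-5p was lost without E14 non-PGCLC replicate 1, without BG5 non-PGCLC replicate 1, with DESeq2 size factors and with exact hairpin matches. The median over the 9 arms that had reads in all 4 groups of E14 and BG5 was 1.80.

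Between SGET and E14 non-PGCLC cells, miR-503-5p was 4.55-fold lower in SGET, and miR-351-3p was absent from both SGET libraries. Taken at the 3-read limit, which covers counting error only, miR-351-3p was 69.2-fold lower there. Its E14 level rested on 188 reads of 1 sequence in replicate 1. In replicate 2 it was 133 reads, 99.2% of them of 1 sequence. Both miR-503-5p and miR-351-3p were called lower, where 2.85% of all arms were. The call of miR-503-5p was lost without E14 non-PGCLC replicate 2 and without each of the BG5 and SGET non-PGCLC replicates, and with total-read scaling or DESeq2 size factors. Both calls were lost with exact hairpin matches (adjusted p = 0.102 for miR-351-3p and 0.0611 for miR-503-5p, edgeR) and with only the samples compared (0.318 and 0.128). miR-322-3p, at 140 ± 43.9 RPM in SGET and 132 ± 31.9 RPM in E14 (SD, n = 2), did not differ beyond the spread. Between SGET and BG5 non-PGCLC cells 4 arms were called lower in SGET (miR-322-3p, miR-351-5p, miR-351-3p and miR-503-5p), where 9.63% of all arms were, and the sum was 11.95-fold lower. Without SGET non-PGCLC replicate 1 the count was 7 arms.

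Between the mPGCLCs of BG5 and E14 edgeR called no arm of the cluster, where 10.2% of all arms were called in either direction. No arm of the cluster had an unadjusted p under 0.05, where 17.8% of all arms did, and DESeq2 called none of them, whereas edgeR called 1 arm without E14 mPGCLC replicate 2 or without BG5 mPGCLC replicate 2. The downstream hairpins were at 224 and 126 RPM in the BG5 mPGCLCs and at 12.3 and 81.3 RPM in the E14 mPGCLCs, without overlap. The upstream hairpins, at 314 and 207 RPM against 208 and 155 RPM, overlapped.

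Each arm was counted from a small number of distinct sequences. miR-351-5p was counted from 12 to 81 distinct sequences per library and miR-322-3p from 6 to 43. The arms of the downstream hairpins rested on far fewer, and miR-542-3p in BG5 mPGCLC replicate 1 was 270 reads of 1 sequence. miR-450a-5p in E14 mPGCLC replicate 2 was 201 reads of 1 sequence, with none in replicate 1. PCR copies could not be removed, so such a count can come from few molecules. Counted by distinct sequence, a choice made after seeing the data, the cluster gave 7.37 and 6.65 of every 1000 distinct miRNA sequences in the E14 mPGCLCs and 8.13 and 8.20 in the BG5 mPGCLCs. The values were 10.7 and 16.5 in the E14, 29.3 and 28.9 in the BG5 and 9.34 and 6.84 in the SGET non-PGCLC cells. The order within E14 and within BG5 was kept without overlap, and the SGET non-PGCLC cells overlapped the mPGCLCs of both lines on this scale.

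The choice of arm and the ends of the reads were not used to choose the cluster. For Mir322 the 5p arm made up 52.5% and 15.7% of the reads of the hairpin in the E14 mPGCLCs, 26.7% and 17.2% in the BG5 mPGCLCs, 8.90% and 39.1% in the E14 non-PGCLC cells and 9.52% and 14.04% in the BG5 non-PGCLC cells. The E14 groups overlapped, and both BG5 mPGCLC libraries lay above both BG5 non-PGCLC libraries. The mean was 10.2 percentage points higher in mPGCLCs, with p = 0.429 (adjusted p = 1) in a two-sided exact permutation test of 4 against 4 libraries, whose smallest possible p is 0.0286. For Mir503 the 3p arm had no reads in any mPGCLC library and 12.1% and 5.51% of the hairpin's reads in the BG5 non-PGCLC cells (exact permutation p = 0.143, adjusted p = 1). Of 151 hairpins tested this way, 5 belonged to the cluster, none of these had an unadjusted p under 0.05 where 6 of the 151 (3.97%) did, and the lowest adjusted p over all 151 was 0.719.

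The most frequent read of the cluster was not the annotated form. miR-351-5p occurred mainly as its RefSeq form with 1 additional T at the 3′ end, where the hairpin has a G. This read is printed because it carried 53.5% of the reads of the arm, against 19.1% for the RefSeq form. The added base is in capitals, and reads are written as DNA as in the files.
miR-351-5p, RefSeq form: tccctgaggagccctttgagcctg
miR-351-5p, most frequent read: tccctgaggagccctttgagcctgT

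The longer form was present in all 10 libraries, at 22.5% to 68.1% of the reads of the arm with a median of 51.9%. It exceeded the RefSeq form in 8 libraries, and the exceptions were the 2 E14 mPGCLC libraries, at 24.2% against 29.4% and at 28.1% against 37.99%. An added A was found at up to 8.62% and an added C at up to 0.762% of the reads. Over all forms, 53.9% to 82.99% of the reads of miR-351-5p differed from the hairpin near the 3′ end. Averaged over the 10 libraries this share was 67.7%, and only 5 of the 213 arms compared had a higher one, where the median arm had 15.2%. It did not differ detectably between mPGCLC and non-PGCLC cells, at a difference of -1.65 percentage points (two-sided exact permutation test, p = 0.857, adjusted p = 0.972).

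miR-322-3p varied at both ends, of which the 5′ end sets the seed. Reads starting at the RefSeq start made up 64.1% of the arm over all libraries, and 35.96% had exactly the RefSeq form. Its second most frequent read, at 17.6%, was the RefSeq form without the last base. A start 2 nt upstream was found at 0% to 47.1% of the reads of a library and a start 1 nt upstream at 0% to 34.7%. The most frequent of these upstream forms carried 15.9% of the reads of the arm and was present in 9 of the 10 libraries. It is printed because its bases 2 to 8 are not those of the RefSeq form.
miR-322-3p, RefSeq form: aaacatgaagcgctgcaacac
miR-322-3p, start 2 nt upstream: caaaacatgaagcgctgcaaca

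miR-542-3p was read mainly with 1 more base than RefSeq, a G that the hairpin also has, in 60.5% of its reads. miR-450b-5p was read mainly with 1 more C that the hairpin has, in 82.3% of its reads. By contrast 82.7% of the reads of miR-322-5p had exactly the RefSeq form. Of 213 arms tested for the share of reads with a 3′ mismatch, 6 belonged to the cluster. miR-542-3p had 0% to 0.274% in the 4 mPGCLC libraries and 0.480% to 4.61% in the 4 non-PGCLC libraries of E14 and BG5. It was the 1 member with an unadjusted p under 0.05 (two-sided exact permutation test, p = 0.0286, adjusted p = 0.468). The number of arms with an unadjusted p under 0.05 was 13 of 213, and none passed adjustment. For mean read length, none of the 6 members had an unadjusted p under 0.05, where 14 of 213 arms, or 6.57%, did and none passed adjustment.

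**Figure D4:**
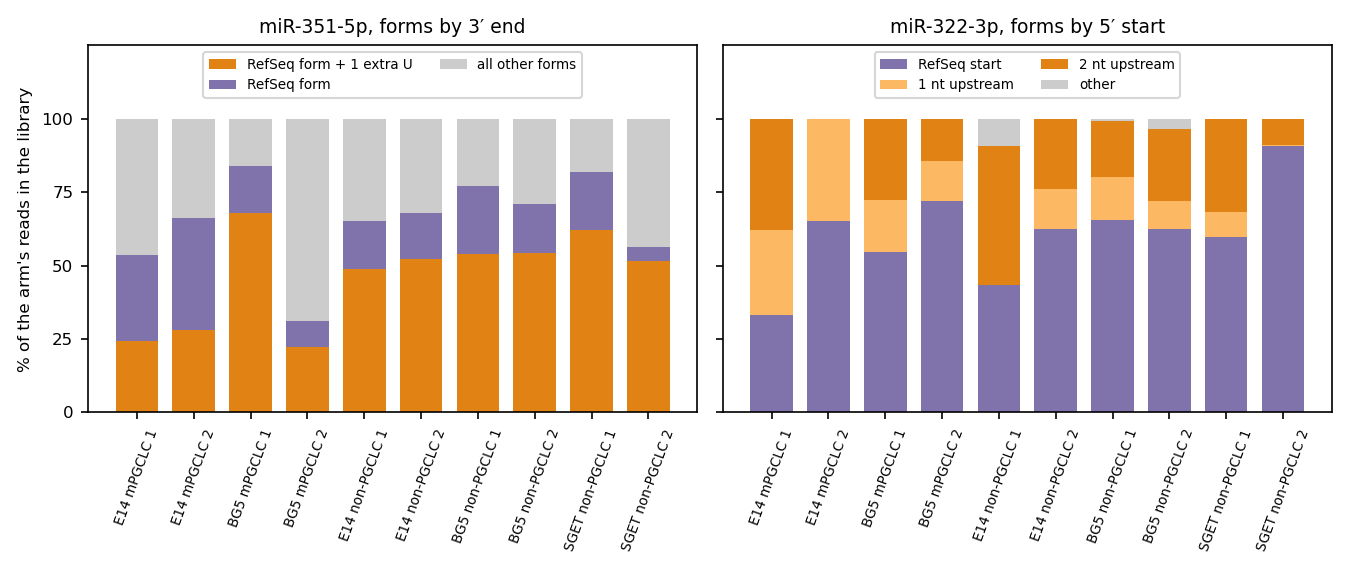
Percent of the reads of miR-351-5p by 3′ form (left) and of miR-322-3p by 5′ start (right) in each of the 10 libraries, as stacked bars that add to 100%. The form of miR-351-5p with an extra U, a T in the reads, was at 22.5% to 68.1%, and the RefSeq start of miR-322-3p at 33.3% to 90.9%.

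Beside their seed relatives, miR-322-5p and miR-351-5p were minor sources of reads. miR-322-5p made up 2.62% and 0.772% of the reads with the seed AGCAGCA in the E14 mPGCLCs and 2.84% and 1.12% in the BG5 mPGCLCs. It made up 1.78% and 14.4% in the E14, 10.9% and 16.9% in the BG5 and 0.785% and 0% in the SGET non-PGCLC cells. The E14 groups overlapped, and those of BG5 did not. Its relatives, led by miR-16 and miR-15b, summed to 1040 ± 47.2 RPM in the E14 mPGCLCs and 589 ± 1.25 RPM in the E14 non-PGCLC cells (SD, n = 2). In BG5 they were at 1083 ± 200 and 1381 ± 418 RPM. The relatives were thus higher in the mPGCLCs than in the non-PGCLC cells of E14, without overlap, and the groups of BG5 overlapped.

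miR-351-5p made up 4.62% and 5.40% of the reads with the seed CCCUGAG in the E14 and BG5 mPGCLCs, against 15.8%, 17.2% and 11.0% in the E14, BG5 and SGET non-PGCLC cells. The mPGCLC libraries, at 4.04% to 6.25%, were all under the non-PGCLC libraries, at 9.44% to 19.7%. The relatives of miR-351-5p summed to 1528 ± 126 RPM in the E14 mPGCLCs and 1738 ± 99.5 RPM in the E14 non-PGCLC cells. In BG5 the sums were 2042 ± 254 and 11286 ± 998 RPM. miR-125a, the more abundant relative in each group mean, was at 1521 RPM in the E14 mPGCLCs and 6785 RPM in the BG5 non-PGCLC cells, and miR-125b at 6.54 and 4500 RPM. Of the 7 relatives tested over both seeds, 2 were called lower and none higher in mPGCLCs by edgeR in the mean over both lines, where 7.13% of all arms were called lower. They were miR-125b, at a log2 change of -5.97 (SE 0.57) in E14 and -5.58 (SE 0.55) in BG5, and miR-125a, at -0.04 (SE 0.25) in E14, where it was not called, and -1.06 (SE 0.25) in BG5.

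Over the 10 libraries, the arm whose log2(RPM + 1) was most like that of the cluster total was miR-335-3p, whose hairpin lies within the gene Mest (Pearson r = 0.990). The next were miR-335-5p (r = 0.973), miR-501-3p (r = 0.968), miR-214-3p (r = 0.950) and miR-199b-5p (r = 0.944). The median r over the 549 arms compared was 0.172. The arms with the most opposite pattern were miR-290a-5p (r = -0.940), miR-293-3p (r = -0.932) and miR-291a-3p (r = -0.928), all of the miR-290 group that marks pluripotent cells. These values describe 10 libraries in 5 groups, with the 2 BG5 non-PGCLC libraries at one end, and the points share the depth of their library. miR-335-3p was at 580 and 588 RPM in the E14 mPGCLCs and at 10344 and 5970 RPM in the BG5 non-PGCLC cells. Within the cluster, the correlation of an arm with the sum of the other arms ranged from 0.475 for miR-450a-5p to 0.967 for miR-322-3p.

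**Figure D5:**
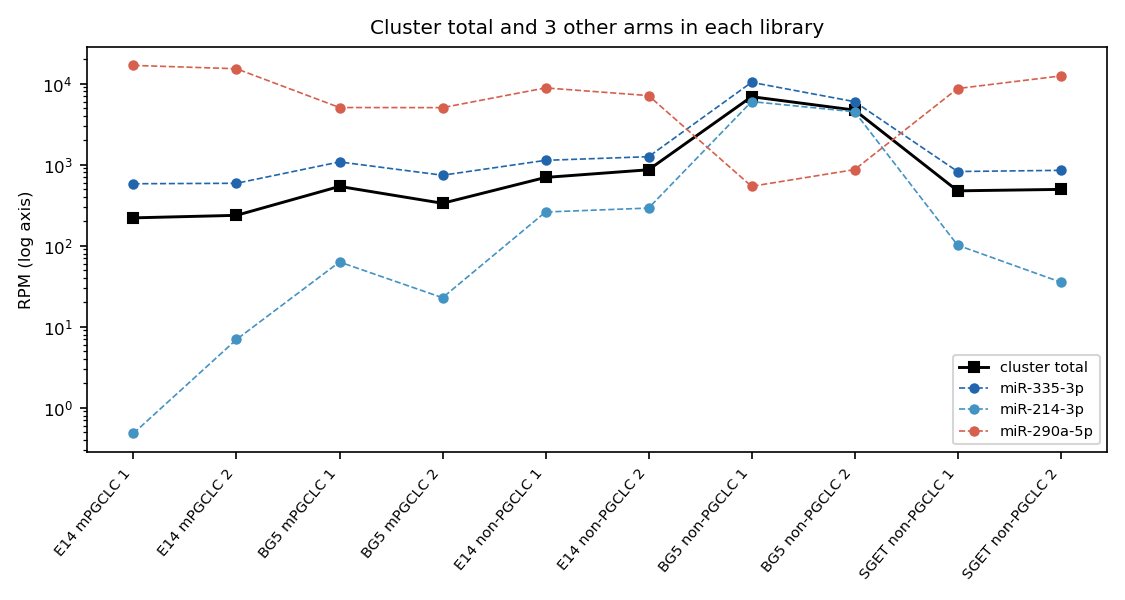
RPM (log axis) of the cluster total, miR-335-3p, miR-214-3p and miR-290a-5p in each of the 10 libraries (horizontal axis), with lines joining the libraries only to guide the eye. The cluster, miR-335-3p and miR-214-3p peaked in the BG5 non-PGCLC libraries, where miR-290a-5p was at its lowest, 539 and 867 RPM.

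Markers of other cell types were compared in the same libraries. The mesenchyme list (Mir199a-1, Mir199a-2, Mir199b, Mir214, Mir143 and Mir145a) gave 9 arms with reads, of which 8 were tested, 5 were called lower and none higher in mPGCLCs (miR-143-3p, miR-199a-5p, miR-199b-5p, miR-214-3p and the merged 3p arm of the Mir199 hairpins), where 7.13% of all arms were called lower. In E14 alone 2 of 8 were called lower and in BG5 alone 4 of 8, where 2.32% and 5.7% of all arms were. miR-143-3p was not called in E14, at 530 and 628 RPM in mPGCLCs and 611 and 550 RPM in non-PGCLC cells. Its log2 change was -0.19 (SE 0.31) in E14 and -3.48 (SE 0.34) in BG5. The summed level of the list was 589 to 683 RPM in the E14 mPGCLCs and 306 to 593 RPM in the BG5 mPGCLCs. In the non-PGCLC cells it was 1685 to 1816 RPM in E14, 17982 to 28680 RPM in BG5 and 1783 to 2226 RPM in SGET. miR-143-3p supplied most of the sum in the mPGCLCs, and miR-199b-5p was at 0 in all 4 mPGCLC libraries. The mesenchyme sum and the cluster were both highest in the BG5 non-PGCLC cells and, within each line, both lower in mPGCLCs. The replicates of the sum overlapped between E14 and BG5 mPGCLCs and between E14 and SGET non-PGCLC cells, so the sum gave no order there. The part of such cells in the levels of the cluster was not tested.

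The pluripotent list (the miR-290 and miR-302 groups, with Mir292 and Mir291b added after their values were seen) gave 24 arms with reads, of which 22 were tested, 14 were called higher and none lower in mPGCLCs in the mean over both lines, where 7.66% of all arms were called higher. In BG5 alone 15 of 22 were called higher, where 8.56% of all arms were. In E14 alone edgeR called none, where 0.535% of all arms were called higher, with 7 at an unadjusted p under 0.05, as were 11.6% of all arms, and none called by DESeq2. Its summed level was 196636 to 224377 RPM in the E14 and 53358 to 76281 RPM in the BG5 mPGCLCs. It was 93596 to 135179 RPM in the E14, 8199.6 to 9412 RPM in the BG5 and 145936 to 161308 RPM in the SGET non-PGCLC cells. By this sum the BG5 non-PGCLC cells were the lowest, and both SGET and E14 non-PGCLC cells were above the BG5 mPGCLCs. The sum came mostly from the miR-290 group, with miR-292-5p at 150300 and 117837 RPM in the E14 mPGCLCs. Its order did not hold for miR-302b-3p, at 3068 and 2607 RPM in the BG5 and 245 and 146 RPM in the E14 mPGCLCs. Between BG5 and E14 mPGCLCs 11 of the 22 arms were called lower in BG5 and 3 higher. Of all arms 10.2% were called there in either direction. The list as first written, in which the name Mir292a matched no hairpin and Mir291b was not listed, had 11 of 18 arms called higher in the mean over both lines and 12 of 18 in BG5, and summed to 55719 to 59958 RPM in the E14 mPGCLCs. The part of such cells in the levels of the cluster was not tested. The epithelium list had 2 of 7 arms, miR-200b-3p and miR-200c-3p, called higher and none lower in the mean over both lines. In BG5 alone 3 of 7 were called higher. The shares of all arms called higher were 7.66% and 8.56%. In E14 alone edgeR called none of the 7, none had an unadjusted p under 0.05, and DESeq2 called none. Lists for endothelium, blood, muscle, endoderm and neural cells had 2, 3, 2, 5 and 4 arms tested. In the mean over both lines edgeR called none of these, where 7.13% of all arms were called lower and 7.66% higher. None had an unadjusted p under 0.05, where 23.4% of all arms did. DESeq2 called 1 blood and 1 endoderm arm, and the share of all arms it called is not given here.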

How the data were processed

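Small RNA was sequenced from 10 libraries in 5 groups of 2, with groups and replicate numbers taken from the labels. The deposited files hold raw counts, with every distinct sequence of a library beside its count. According to the methods and the submitters' processing notes, the authors used cutadapt 3.2 to trim adapters and the 4 random bases at either end. Reads of 15 nt or longer were mapped to GRCm38 by STAR 2.5.3a with at most 2 mismatches and 100 positions, of which 1 was drawn at random. Since the random bases did not serve as molecular identifiers, PCR copies were not removed. The read files of 2 instrument types were joined, and the part from each is not given.

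From these counts, reads of 18 to 26 nt were assigned here to GENCODE vM21 hairpins in sense when their first 18 nt matched exactly and no more than 2 later bases differed, keeping the fewest mismatches. Arms sharing at least 50% of the reads of the smaller arm were merged. Mature sequences and coordinates are from RefSeq and GENCODE on GRCm38. RPM is the count per 1000000 reads of the file.

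All arms were tested together by edgeR 4.0.16 (quasi-likelihood, R 4.3.3), with 5 group means, filterByExpr, TMM scaling on total reads and Benjamini-Hochberg adjustment, at a threshold of 0.05. A standard error is the size of the log2 change over the root of F. The contrasts share samples: the 2 lines' effects use separate libraries, and each non-PGCLC group enters several contrasts. Arm share, read length and 3′ mismatch share were compared with two-sided exact permutation tests over 70 arrangements of 4 mPGCLC and 4 non-PGCLC libraries. These arrangements took no account of the line. Items had at least 20 reads in each library, and p was adjusted over all hairpins or arms. On simulated data with the spread of the real libraries, the fit recovered 35.5% of 200 arms changed 8-fold among 561 in the mean over both lines.

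All arms of the cluster are given. Outside it, the arms named are the 5 most and 3 least like the cluster total and members of the seed and marker lists. The members and lists were chosen with earlier results of these data known. Alternatives were DESeq2 1.42.0, other scalings, no filter, only the samples compared, exact matches, 20 to 24 nt, miRNA reads as denominator, each replicate left out and a replicate block. Germ cells from embryos and SGET mPGCLCs were not analysed here.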

Additional observations from a re-analysis of the deposited data

How the results depend on the processing

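The summed level of the cluster kept its direction in every contrast and setting tried. With miRNA reads as denominator, the log2 ratio of mPGCLC to non-PGCLC cells was -2.50 in E14 and -3.19 in BG5, against -1.77 and -3.73 in RPM, and the difference between the lines was -0.69. On that scale BG5 against E14 was 1.76 in mPGCLCs and 2.45 in non-PGCLC cells, and SGET against E14 was -1.34. With reads of 20 to 24 nt the E14 ratio was -1.41. Counting distinct sequences (chosen after seeing the data) gave -1.39 over both lines, -0.95 in E14, -1.83 in BG5 and -0.88 for their difference, 0.22 between mPGCLCs, 1.10 for BG5 and E14 non-PGCLC cells and -1.85 for SGET against BG5. The cause of these shifts was not tested. Leaving out 1 library gave -1.92 to -1.60 in E14, -4.12 to -3.43 in BG5, -2.94 to -2.60 over both, -2.35 to -1.66 for their difference, 0.54 to 1.24 between mPGCLCs, 2.59 to 3.14 for BG5 against E14, -0.83 to -0.52 for SGET against E14 and -3.83 to -3.28 for SGET against BG5 non-PGCLC cells.

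The number of arms called over both lines was 3, and 3 to 4 without 1 library. In E14 it was 1 with total-read scaling, exact hairpin matches or only the samples compared, and 1 to 3 without 1 library. In BG5 it was 2 to 4 without 1 library, and for the difference between the lines and between mPGCLCs 0 to 1. For BG5 against E14 non-PGCLC cells it was 1 with DESeq2 size factors or exact matches, and 1 to 2 without 1 library. For SGET against E14 it was 1 with total-read scaling or DESeq2 size factors, 0 with exact matches or only the samples compared, and 1 to 4 without 1 library. For SGET against BG5 it was 4 to 7.

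Small differences in the form of the reads, none of which passed adjustment, turned in sign. The difference in mean read length of miR-322-5p was 0.0772 nt with exact matches and 0.0215 nt with reads of 20 to 24 nt, and the 3′ mismatch share of miR-351-5p differed by 7.34 points with reads of 20 to 24 nt. Without 1 library the length difference ranged from -0.0213 to 0.0524 nt for miR-322-5p, -0.328 to 0.0238 for miR-322-3p, -0.157 to 0.594 for miR-503-5p, -0.0904 to 0.379 for miR-351-5p and -0.229 to 0.105 for miR-450b-3p. The mismatch difference ranged from -9.85 to 2.36 points for miR-503-5p and -7.83 to 1.89 for miR-351-5p, and the 5p share of Mir450b from -3.11 to 19.99 points.

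Same-numbered libraries did not deviate together (r = -0.0547 in E14 and 0.0288 in BG5 over 561 arms). From 2 libraries a group this cannot settle whether the replicate numbers pair them. With the replicate block 3 arms were called over both lines, 2 in E14, 3 in BG5, 0 for their difference and 5 for SGET against BG5, where miR-322-5p was added. With 2 libraries a group, arms counted from few distinct sequences had wide errors, and differences smaller than these were not detectable.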
